A study of Mus musculus with 8 samples.

Results

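Effector Th1 cells were compared with the naïve CD4 T cells from which such cultures are started. The comparison held 4 of the 8 RNA sequencing libraries of the series, 2 of Th1 cells and 2 of naïve CD4 T cells, chosen by their labels. Of 23284 genes listed, 10861 had a mean FPKM of at least 1 over these 4 libraries and were tested. FPKM scales a gene's fragments to transcript length and to library depth, so levels can be set side by side between genes. All cells came from DO11.10 Tg mice, in which CD4 T cells carry a transgenic TCR for a peptide of ovalbumin (OVA). The naïve cells were CD4 T cells sorted from spleen by surface markers, CD44low among them, and were not cultured. The Th1 cells were such naïve cells after 6 days of culture in 30 U/ml IL-2 and 100 U/ml IL-12, with IL-4 blocked by 1 μg/ml of antibody. For reference, Th2 cells (30 U/ml IL-2 and 100 U/ml IL-4, with 10 μg/ml of anti-IFNγ antibody) and Th17 cells (10 ng/ml each of IL-6, IL-1β and IL-23, with 10 μg/ml each of anti-IL-4 and anti-IFNγ antibody) had 2 libraries per group and were cultured for the same time. Per the study's methods, the effector cultures were stimulated with OVA peptide and irradiated splenocytes depleted of T cells, so a culture could also hold remains of these feeder cells. Stimulation through the TCR, time in culture and the added cytokines were therefore all changed at once against naïve cells and cannot be told apart. Nothing in the labels says whether the replicates came from separate mice, so the p-values measure the spread between these libraries, which may be technical.

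Naïve CD4 T cells circulate in a resting state held by factors such as TCF1, KLF2 and FOXO1. When their TCR is engaged they grow and divide, and under IL-12 acting through STAT4 they switch on T-bet, the master regulator of the Th1 lineage, and secrete IFNγ. IFNγ in turn acts on many cells through its receptor, where it raises guanylate-binding proteins, immunity-related GTPases and the machinery that presents antigen on MHC class I.

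The labels were first checked against markers. *Tbx21*, which encodes T-bet, had an FPKM of 0.260 and 0.486 in the naïve libraries and 45.1 and 50.7 in the Th1 libraries. *Ifng*, the gene of IFNγ, stood at 0.218 and 0.437 in naïve and at 802 and 614 in Th1 cells. *Il12rb2*, the signalling chain of the IL-12 receptor, stood at 0.509 and 0.768 in naïve and at 193 and 233 in Th1 cells. All 3 markers were near background in both naïve libraries and far above it in both Th1 libraries, without overlap. In the limma fit of log2(FPKM + 1) the differences were 5.16 ± 0.13 (SE, adjusted p = 2.03e-07), 9.05 ± 0.35 (adjusted p = 9.01e-07) and 7.03 ± 0.16 (adjusted p = 1.6e-07), respectively. In the mouse genome (GRCm38) *Tbx21* lies at chr11:97098007-97115331, *Ifng* at chr10:118441046-118445894 and *Il12rb2* at chr6:67285986-67376293. The CD4 T cell genes were high in all 4 libraries, with *Cd4* at 358 and 373 in naïve and 251 and 274 in Th1 cells, and *Cd3e* at 351, 342, 229 and 248. *Cd44* (14.7 and 15.3 against 60.4 and 64.8) encodes a protein by which naïve cells were sorted, so its difference was set in part by the sort.

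The depth implied by the deposited confidence intervals was 14463466 and 14475884 fragments for the naïve libraries and 20346892 and 20359025 for the Th1 libraries, and 14463466 to 21058286 over all 8. At an FPKM of at least 1, 9986 and 10111 genes were found in naïve and 10674 and 10664 in Th1 cells. Pearson's r across genes was 0.953 between the naïve libraries and 0.956 between the Th1 libraries, against 0.691 to 0.722 between a naïve and a Th1 library. Genes are not independent replicates, so r describes the libraries only. In bulk RNA, fewer cells of a type and less RNA per cell cannot be told apart, and an FPKM is a share of the RNA of its library.

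Th1 cells differed from naïve CD4 T cells in most of the genes tested. With limma and Benjamini-Hochberg adjustment at 0.05, 7387 genes differed, which is 68.0% of those tested. Of these, 3574 (32.9%) were higher and 3813 (35.1%) lower in Th1 cells. The median difference over all genes was −0.05 and the middle 50% of the genes lay between −0.62 and 0.65 on the log2 scale. Differences of at least 1 on this scale were called for 1935 higher genes (17.8%) and 1385 lower genes (12.8%). At least 8-fold on the FPKM + 1 scale, 439 genes were higher and 72 lower. In 8993 genes (82.8%) both Th1 libraries lay on the same side of both naïve libraries. Against this background the mere presence of called genes in a group says little, and the groups below are described by the direction and size of their differences. The difference on the log2(FPKM + 1) scale understates the change of genes with a low FPKM in either group, and where a gene is listed at 0 in a group its fold is no bound. The Th1 libraries were also set against the mean of Th2 and Th17 cells, where 1799 genes (16.6%) exceeded that mean in Th1 cells and 1507 (13.9%) stayed under it, with a median of 0.02. Both contrasts use the same Th1 libraries, so their values stand side by side and are not independent.

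**Figure D1:**
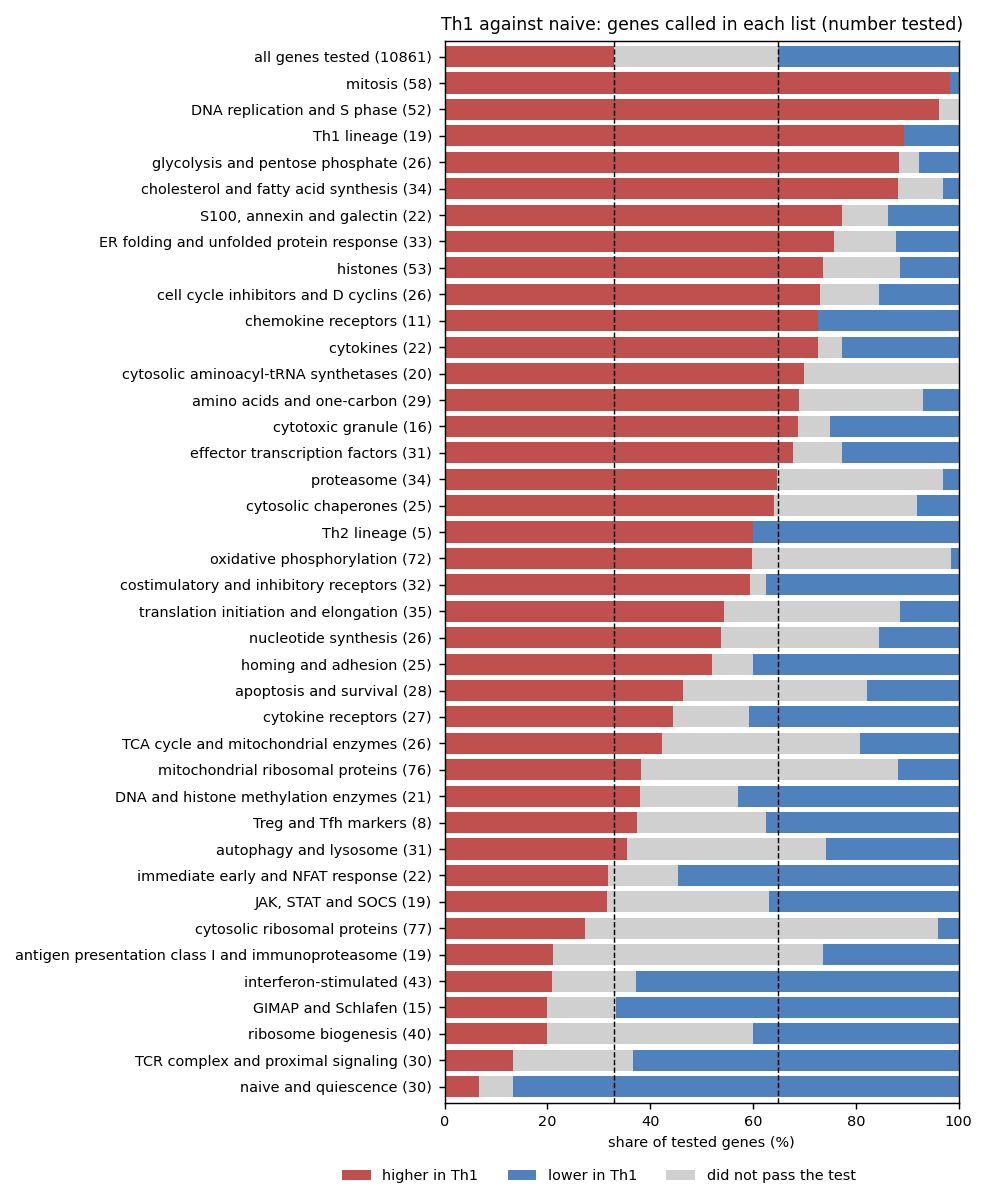
Share of the tested members of each gene group (horizontal axis, percent) that were higher or lower in Th1 than in naïve CD4 T cells at an adjusted p under 0.05, with all 10861 genes tested in the top bar, their shares as dashed lines and genes that did not pass in grey. Mitosis and DNA replication genes were almost all higher, and naïve and quiescence genes were mostly lower (26 of 30).

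The genes of the Th1 lineage mostly rose. Of 21 listed genes 19 were tested, and 17 rose and 2 fell, with a median difference of 4.04. The 2 that were not tested for low values were *Eomes* (0.497 and 0.572 in naïve, 0.819 and 1.07 in Th1 cells) and *Twist1* (listed at 0 in naïve, 1.48 and 1.99 in Th1 cells). *Tbx21*, *Ifng* and *Il12rb2* count among the 17 and also served as the check of the labels.

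The receptor chains for IL-12 and IL-18 on the list rose. *Il12rb1*, the chain shared by the IL-12 and IL-23 receptors, stood at 2.16 and 4.10 in naïve and 62.1 and 80.8 in Th1 cells. *Il18r1*, which binds IL-18, stood at 23.4 and 23.6 against 122 and 137, and its partner *Il18rap* at 0.422 and 0.578 against 24.0 and 36.4. None of these overlapped between the groups, and *Il18r1* was the only one of them with an FPKM above 10 in naïve cells. The differences were 4.16 ± 0.24 for *Il12rb1*, 2.41 ± 0.11 for *Il18r1* and 4.35 ± 0.21 for *Il18rap*. Against Th2 and Th17 cells *Il12rb1* was higher by only 0.69 ± 0.21 (adjusted p = 0.0463, and 0.0527 to 0.28 with any 1 effector library left out), *Il12rb2* by 1.74 ± 0.14, and *Il18r1* by 4.54 ± 0.09. *Stat4*, which carries the IL-12 signal, was already at 33.1 and 34.1 in naïve cells and rose to 40.1 and 50, a difference of 0.40 ± 0.13 (adjusted p = 0.0281). The call of *Stat4* was lost without Th1 replicate 2 (0.25, adjusted p = 0.164) and without naïve replicate 1 (0.38, adjusted p = 0.0978) or 2 (0.42, adjusted p = 0.0737).

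The 2 chains of the IFNγ receptor moved in opposite directions. *Ifngr1*, the ligand-binding chain, stood at 68.2 and 57.1 in naïve and 240 and 238 in Th1 cells. *Ifngr2*, the signalling chain, stood at 41.2 and 37.8 in naïve and 1.55 and 1.19 in Th1 cells. Both Th1 libraries thus had more *Ifngr1* and far less *Ifngr2* than both naïve libraries. *Ifngr1* rose by 1.92 ± 0.14 (adjusted p = 1.74e-05) and *Ifngr2*, at chr16:91547059-91564007 (GRCm38), fell by 4.10 ± 0.11 (adjusted p = 2.4e-07). Th2 and Th17 cells kept *Ifngr2* at a mean FPKM of 15.7 and 17.0 and had *Ifngr1* at 36.8 and 54.4. The difference of Th1 cells from them was 2.39 ± 0.12 for *Ifngr1* and −2.87 ± 0.09 for *Ifngr2*.

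Of 34 cytokine genes 22 were tested, and 16 rose, 5 fell and 1 did not pass, with a median difference of 2.39. *Ifng* had the largest difference. *Lta*, which encodes lymphotoxin α, rose from 12.1 and 10.0 to 412 and 372, and *Tnf* from 6.58 and 8.44 to 52.1 and 51.5. *Ltb*, the membrane partner of lymphotoxin α, was high in naïve cells (569 and 522) and lower in Th1 cells (268 and 291). *Csf1*, the macrophage growth factor, rose from 0.579 and 1.12 to 91.7 and 114, and stood 2.92 ± 0.16 above Th2 and Th17 cells. *Il10*, the gene of an inhibitory cytokine, was listed at 0 and 0.0796 in naïve and at 43.7 and 38.1 in Th1 cells, a level between those of Th17 (mean 0.864) and Th2 cells (mean 138). Th1 cells also gained genes that were higher still in the other effector cells. *Il24* reached 139 and 112 against means of 396 in Th2 and 334 in Th17 cells, *Lif* 58.7 and 47.0 against 327 and 171, and *Il21* 7.36 and 5.59 against 20.6 and 41.7. *Il16*, a chemoattractant for CD4 T cells, fell most among the cytokines, from 98.2 and 109 to 17.4 and 20.8 (−2.39 ± 0.13). All 3 chemokine ligands tested rose, with a median of 2.29. *Tnfsf14* was the cytokine that did not pass (0.25, adjusted p = 0.111). *Il2*, *Il4*, *Il5* and *Il17a* were below the filter on low values. The lineage lists of other helper cells held few tested genes: of the Th2 list 5 of 11 were tested (3 rose, 2 fell; 1 rose without naïve replicate 1 or without Th1 replicate 2), of the Th17 list 2 of 10 (both rose, 1 without Th1 replicate 2) and of the Treg and Tfh list 8 (3 rose, 3 fell, 2 did not pass). *Gata3*, the master regulator of Th2 cells, fell from 20.2 and 20.4 to 5.46 and 7.95, and *Foxp3*, that of regulatory T cells, from 6.68 and 12.8 to 0.874 and 1.13. *Ebi3*, a subunit of IL-27 and IL-35, rose by 4.69, the largest difference of the Treg and Tfh list.

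**Figure D2:**
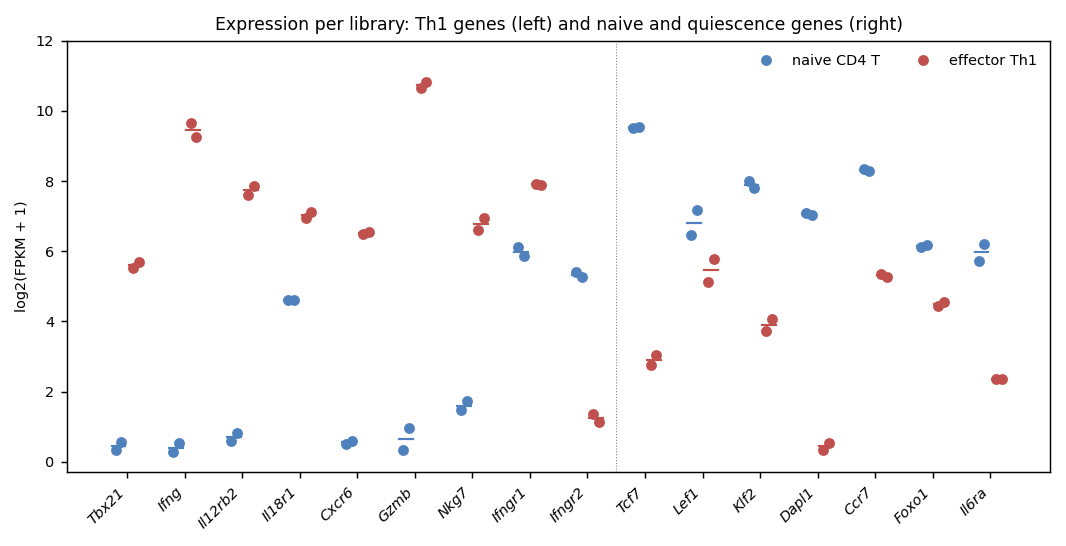
Level on the log2(FPKM + 1) scale (vertical axis) of 16 genes in the naïve (blue) and Th1 (red) libraries, with each point a library and each short line the mean of a group. *Tbx21*, *Ifng* and *Il12rb2* are near the floor in both naïve libraries and high in both Th1 libraries, whereas *Tcf7* runs from an FPKM of 735 and 741 down to 5.79 and 7.33.

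Transcription factors known from effector T cells mostly rose. Of 31 tested, 21 rose, 7 fell and 3 did not pass, with a median difference of 1.78. *Batf3* rose most, from 0.172 and 0.0863 to 138 and 114 (6.81 ± 0.16). *Bhlhe40*, needed for cytokine production by helper T cells, rose from 0.705 and 0.935 to 159 and 175, and *Nfil3* from 0.928 and 0.736 to 120 and 128. *Irf4*, which scales with the strength of TCR stimulation, rose from 1.62 and 2.15 to 120 and 106. The differences of these 4 factors from Th2 and Th17 cells were 0.02, 0.34, −0.28 and −0.62, and among them only that of *Irf4* passed (adjusted p = 0.00406). *Irf8* (3.21 and 4.62 against 101 and 112) and *Zbtb32* (0.611 and 1.23 against 78.5 and 80.6) rose and also stood above Th2 and Th17 cells, by 2.77 ± 0.13 and 2.62 ± 0.20. *Prdm1*, the gene of BLIMP1, rose by 2.95 and stood 1.62 above the other effector cells. *Hlx*, a homeobox partner of T-bet, rose by 4.04 and *Runx3*, which binds with T-bet at *Ifng*, by 1.78. *Tox* fell most, from 14.3 and 17.9 to 0.110 and 0.387 (−3.77 ± 0.17).

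The cytotoxic granule genes divided by gene. Of 16 tested, 11 rose, 4 fell and 1 did not pass, with a median difference of 1.33. *Gzmb*, the gene of the protease granzyme B at chr14:56258836-56262334 (GRCm38), stood at 0.252 and 0.941 in naïve and 1606 and 1823 in Th1 cells. The difference of 10.10 ± 0.27 (adjusted p = 2.51e-07) was the largest of all genes tested. *Srgn*, the proteoglycan that packs granules, rose from 178 and 122 to 1008 and 755. *Nkg7*, a granule membrane protein, rose from 1.79 and 2.30 to 96.6 and 123, and stood 5.10 ± 0.12 above Th2 and Th17 cells. *Prf1*, which encodes the pore-former perforin, ran the other way, from 15.7 and 17.5 down to 6.85 and 6.49 (−1.2 ± 0.10). *Crtam*, a receptor of cytotoxic CD4 T cells, fell most, from 4.93 and 6.00 to 0 and 0.0607. *Gzma* rose by 3.24 to 61.1 and 75.5 but was far higher in Th2 cells (mean 2321). *Fasl*, the ligand of the death receptor FAS, rose from 2.20 and 1.98 to 7.39 and 7.12, whereas Th2 and Th17 cells had 0.157 and 0.270. Granzymes are paralogs that lie side by side, and how reads common to several of them were assigned was not tested.

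Most chemokine receptors rose. Of 11 chemokine receptors tested, 8 rose and 3 fell, with a median difference of 3.89. *Cxcr6*, the receptor of CXCL16, rose from 0.413 and 0.520 to 89.5 and 92.4, and *Ccr2* from 0.619 and 0.882 to 94.3 and 75.3. All of these separated the groups completely. *Cxcr3*, the receptor for the chemokines that IFNγ induces, rose less, from 1.55 and 3.41 to 8.01 and 9.35 (1.53 ± 0.24). *Cxcr1* and *Cxcr2*, known mainly from neutrophils, rose to 198 and 202 and to 81.2 and 82.4, from 1.47 and 1.62 and from a level listed at 0 in both naïve libraries. The 15 myeloid markers did not rise with them: 8 were tested, 3 rose, 2 fell and 3 did not pass, and their summed FPKM was 24.4 and 21.2 in naïve and 24.8 and 20.2 in Th1 cells. The neutrophil markers *S100a8* and *S100a9* were at or below 0.467 in all 4 libraries. *Mpo* and *Elane* were at 4.89 and 2.59 in the first Th1 library and at 0 in the second.

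The other 3 chemokine receptors fell. *Ccr7*, which guides T cells into lymph nodes, went from 327 and 310 to 39.8 and 37.8 (−3.0 ± 0.09). *Ccr9*, a gut homing receptor, went from 9.27 and 8.81 to 0.0473 and 0.0249, and *Cxcr4* from 90.0 and 78.8 to 34.6 and 33.8. *S1pr1*, with which T cells leave lymph nodes, fell from 192 and 182 to 32.0 and 26.8, the largest fall of the homing and adhesion list (−2.63 ± 0.13). Of the 25 members of that list 13 rose, 10 fell and 2 did not pass, with a median of 0.54. *Gcnt1* and *Fut7*, enzymes that build selectin ligands, rose by 4.72 and 4.32. *Itga4*, the α chain of VLA-4, fell from 33.1 and 31.2 to 5.88 and 5.31 and was nevertheless 1.82 ± 0.08 above Th2 and Th17 cells, where its means were 1.23 and 0.564. Against those cells 17 of the 25 were higher and 2 lower in Th1 cells, with a median of 0.65, and 11 were higher without Th1 replicate 2.

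Cytokine receptors moved in both directions. Of 27 cytokine receptor genes 12 rose, 11 fell and 4 did not pass, with a median of 0.14. *Il2ra*, the high-affinity chain of the IL-2 receptor, stood at 4.55 and 5.67 in naïve and 611 and 604 in Th1 cells (6.64 ± 0.14), and *Il2rb* at 8.79 and 16.8 against 370 and 434. *Il2rg*, the chain that the IL-2 and IL-7 receptors share, was lower in Th1 cells (404 and 416 against 278 and 321, −0.45, adjusted p = 0.0181), a call lost without naïve replicate 2 (−0.43, adjusted p = 0.0631) or Th1 replicate 1 (−0.35, adjusted p = 0.113). *Il6ra* fell from 52.3 and 73.4 to 4.12 and 4.16. *Il7r*, a receptor for survival in the resting state, was higher in Th1 cells (187 and 165 against 90.6 and 76.5) and lower in Th2 and Th17 cells (means 58.0 and 66.8). Downstream, 6 of 19 JAK, STAT and SOCS genes rose, 7 fell (4 without Th1 replicate 1) and 6 did not pass, with a median of −0.13. Of all genes tested 32.9% rose and 35.1% fell, shares near those of this list. *Socs2* (0.840 and 0.845 against 98.3 and 93.8) and *Cish* (18.4 and 15.6 against 249 and 230), feedback inhibitors induced by IL-2 through STAT5, rose most, and *Jak1* fell most (−1.18).

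Costimulatory and inhibitory receptors moved in both directions. Of 32 tested, 19 rose, 12 fell and 1 did not pass, against 32.9% and 35.1% of all genes, with a median of 1.45. *Tnfrsf9*, which encodes CD137, rose from 1.26 and 2.74 to 271 and 250 (6.49 ± 0.22). *Tnfrsf8*, which encodes CD30, rose from 0 and 0.160 to 76.5 and 76.8 (6.17 ± 0.12), and stayed 1.74 ± 0.10 below Th2 (mean 273) and Th17 cells (mean 246). *Icos* and *Ctla4* rose by 5.41 and 4.86 and no difference from the other effector cells was called (adjusted p = 0.645 and 0.4). *Klrk1*, the gene of NKG2D, stood at 0.133 and 0.247 in naïve and 28.2 and 30.4 in Th1 cells, and 3.87 ± 0.09 above Th2 and Th17 cells. *Klrd1* stood at 8.71 and 3.51 against 22.3 and 15.6, and *Havcr2*, the gene of TIM-3, at 0.139 and 0.0697 against 3.20 and 4.56. *Cd27*, a costimulatory receptor of naïve T cells, fell most, from 270 and 252 to 22.5 and 27.2 (−3.35 ± 0.14), and *Slamf6*, *Cd226* and *Cd96* fell by 2.45, 2.42 and 2.31.

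Genes of the resting naïve state mostly fell. Of 30 tested, 26 fell, 2 rose and 2 did not pass, with a median difference of −1.80. *Tcf7*, the gene of TCF1 at chr11:52246527-52283383 (GRCm38), stood at 735 and 741 in naïve and 5.79 and 7.33 in Th1 cells. *Dapl1* stood at 135 and 129 against 0.265 and 0.463, and *Klf2*, which maintains quiescence and the exit from lymph nodes, at 257 and 221 against 12.3 and 15.9. All 3 were far lower in both Th1 libraries than in either naïve library. The differences were −6.62 ± 0.25 (adjusted p = 8.52e-07), −6.61 ± 0.22 (adjusted p = 4.73e-07) and −3.99 ± 0.27 (adjusted p = 1.43e-05). *Foxo1*, a factor that keeps *Klf2* and *Il7r* on, fell less, from 68.6 and 70.8 to 20.8 and 22.3. *Lef1*, the relative of TCF1, had the widest spread of these, with 86.6 and 143 in naïve and 34.2 and 54.5 in Th1 cells (−1.35 ± 0.38, adjusted p = 0.0152), and its call was lost without naïve replicate 2 (−0.99, adjusted p = 0.0934) or Th1 replicate 1 (−1.02, adjusted p = 0.0943). *Actn1* fell by 4.06, *Klf3* by 3.30, *Btg2*, an antiproliferative factor, by 2.86 and *Dgka*, which dampens TCR signals, by 2.32. The 2 that rose were *Il7r* (1.07) and *Treml2* (0.83). *Satb1* (0.22) and *Zeb1* (0.17) did not pass the test.

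Genes of TCR signalling were mostly lower in Th1 cells. Of 30 members tested, 19 fell, 4 rose and 7 did not pass, with a median of −0.52. *Tespa1*, which aids TCR signalling in development, fell most, from 39.2 and 46.4 to 4.30 and 4.06 (−3.07 ± 0.16). *Lat*, the adaptor on which the signal is assembled, fell from 511 and 533 to 176 and 220. *Malt1*, a protease on the way to NF-κB, rose most, from 20.0 and 22.6 to 93.9 and 92.8. Against Th2 and Th17 cells 18 of the 30 were higher and 2 lower in Th1 cells, with a median of 0.46, and without the second Th1 library 8 were higher. Immediate early and NFAT response genes were lower for the most part: of 22, 12 fell, 7 rose and 3 did not pass, with a median of −0.71. *Fos* fell from 40.1 and 29.6 to 9.2 and 8.36, *Nr4a1* from 13.1 and 17.0 to 3.08 and 3.31, and *Zfp36l2*, which destabilises mRNA, fell most (−2.72). *Myc*, which drives growth, rose from 33.5 and 31.4 to 216 and 227, and *Ier3* rose most, by 5.51.

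Apart from the lists, the 15 genes with the largest and the 15 with the smallest difference were taken by rank. They held *Gzmb*, *Ifng*, *Cdkn1a* and *Lgals3*, which are described with their lists. *Ifitm1*, *Ifitm2* and *Ifitm3*, interferon-inducible transmembrane proteins, stood at 0.604 to 4.10 in naïve and 847 to 1844 in Th1 cells. *Plac8* stood at 2.58 and 2.76 against 2402 and 2604 and was 5.43 ± 0.11 above Th2 and Th17 cells. *Mt1* and *Mt2*, the metallothioneins, rose by 8.25 and 7.63. *Lilrb4* and *Gp49a*, neighbouring receptors of near-identical sequence, rose by 8.62 and 8.58, and their separate levels are uncertain. *Ly6c1*, of another family of close copies, rose by 8.13, *AA467197* by 8.10 and *Ctla2a* by 7.73. Among the genes that fell were *Pdlim4* (118 and 90.5 against 0.265 and 0.244), *Atp1b1*, a chain of the sodium pump (73.4 and 54.4 against 0.103 and 0.0925), *Slc16a5* (52.8 and 46.5 against 0.0577 and 0.0486) and *Dtx1*, a target of NOTCH (41.8 and 56.9 against 0.0926 and 0.117). *Arl5c*, *Fam101b*, *Scg5*, *Samd9l*, *Sidt1*, *Vipr1*, *Scml4* and *Amigo2* fell by 4.35 to 5.37, with *Tcf7*, *Dapl1* and *Rtp4* completing the 15. No library of one group overlapped the other in any of these 30 genes, which the rule required.

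**Figure D3:**
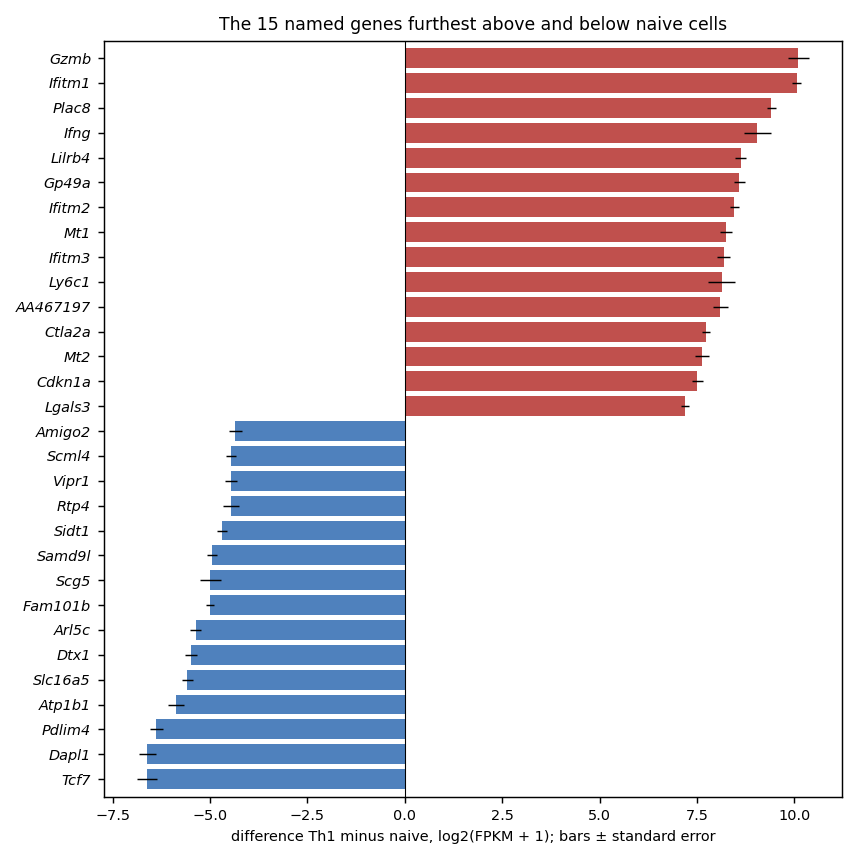
Difference of Th1 from naïve CD4 T cells on the log2(FPKM + 1) scale (horizontal axis, bars with the SE) for the 15 genes with the largest and the 15 with the smallest difference. The differences ran from 10.10 for *Gzmb* to −6.62 for *Tcf7*.

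The listed interferon-stimulated genes of Th1 cells mostly lay below those of naïve cells and above those of Th2 and Th17 cells. Of 46 listed genes 43 were tested. Against naïve cells 27 fell, 9 rose and 7 did not pass, with a median of −0.90. Against Th2 and Th17 cells 33 were higher and 0 lower, with a median of 1.06. Part of these calls rested on both Th1 libraries. Without Th1 replicate 2 those lost included *Isg20*, *Mx1*, *Oas3*, *Irf9*, *Usp18*, *Bst2*, *Ifi27l2a*, *Ifi35* and *Parp14*. Their differences then were 0.38 to 1.02. Th2 and Th17 cultures had received an antibody against IFNγ and Th1 cultures had not. The cultures also differed in their added cytokines, so the part of each cannot be told apart and was not tested. The list is mixed, since some members answer mainly to type I interferon and others to IFNγ. It does not hold *Ifitm1*, *Ifitm2* and *Ifitm3*, which rose against naïve cells and are described above by rank.

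For 29 genes of the list the promoter, from 250 bases before to 50 after the start of transcription, was found in RefSeq (GRCm38.p6), as 37 windows. The element ISRE, searched on both strands as GAAA, any 2 bases and GAAA, was in 20 of these windows (54.1%) against 3.4% of all 32851 windows and 3.1% of those of the genes tested. The element GAS, searched as TTCNNNGAA, was in 12 (32.4%) against 8.3% of all windows and 7.1% of those of the genes tested. In the 18 windows of the class I and immunoproteasome genes described below, GAS was in 1 (5.6%) and ISRE in 4 (22.2%). A match is a description of the letters and not a site of binding. The 120 bases just before the start are shown for 3 genes with each element, written 5′ to 3′ on the strand of the gene. The genes were taken by the size of their difference, in either direction, among called members with a match in these bases. With like elements they moved in different directions. Capitals mark the ISRE in *Ifit1* (chr19:34640769-34640888, plus strand), *Isg15* (chr4:156200819-156200938, minus strand) and *Gbp3* (chr3:142559924-142560043, plus strand).
Ifit1: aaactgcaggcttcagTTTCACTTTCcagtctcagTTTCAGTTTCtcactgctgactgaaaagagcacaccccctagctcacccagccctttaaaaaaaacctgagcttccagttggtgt
Isg15: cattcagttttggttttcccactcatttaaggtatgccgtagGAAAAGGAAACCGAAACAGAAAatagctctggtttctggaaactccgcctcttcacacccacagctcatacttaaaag
Gbp3: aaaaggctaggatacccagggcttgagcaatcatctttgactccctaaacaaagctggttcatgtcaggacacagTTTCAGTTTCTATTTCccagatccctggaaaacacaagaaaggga
Capitals mark the GAS in *Gbp5* (chr3:142496814-142496933, plus strand), *Irf1* (chr11:53769894-53770013, plus strand) and *Isg20* (chr7:78913304-78913423, plus strand).
Gbp5: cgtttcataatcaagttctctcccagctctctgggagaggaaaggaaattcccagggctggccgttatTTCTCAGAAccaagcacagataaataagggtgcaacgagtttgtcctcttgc
Irf1: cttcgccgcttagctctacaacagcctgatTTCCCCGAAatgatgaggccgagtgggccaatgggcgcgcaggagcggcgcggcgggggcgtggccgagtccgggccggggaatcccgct
Isg20: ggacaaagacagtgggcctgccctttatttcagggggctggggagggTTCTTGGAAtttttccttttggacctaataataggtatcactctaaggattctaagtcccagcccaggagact

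Several members were far lower in Th1 than in naïve cells. *Ifit1* stood at 7.77 and 16.1 in naïve and 0.274 and 0.581 in Th1 cells, *Ifit3* at 6.51 and 17.6 against 0.0816 and 0.152, and *Rtp4* at 20.1 and 30.9 against 0.214 and 0.125. These 3 lay far below naïve cells in both Th1 libraries and no difference from the other effector cells was called, with values of 0.33 (adjusted p = 0.368), 0.10 (adjusted p = 0.842) and 0.00 (adjusted p = 0.99). *Rtp4* had the largest fall of the list, by 4.47 ± 0.21. *Oas2* fell by 3.56, *Isg15*, a ubiquitin-like modifier, by 2.16 ± 0.27 and *Irf7*, which amplifies type I interferon, by 3.12 ± 0.24. *Isg15* and *Irf7* nevertheless stood 1.19 and 1.00 above Th2 and Th17 cells, calls that were lost without Th1 replicate 2 (1.11, adjusted p = 0.0753, and 0.86, adjusted p = 0.0921).

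Several guanylate-binding proteins were higher in Th1 cells. *Gbp3* stood at 12.6 and 18.8 in naïve and 38.3 and 39.0 in Th1 cells (1.27 ± 0.17), *Gbp5* at 12.9 and 22.2 against 72.7 and 69.7 (2.01 ± 0.22), and *Gbp7* at 32.8 and 47.2 against 72.2 and 70.5 (0.84 ± 0.16). Both Th1 libraries lay above both naïve libraries for all 3. Th2 cells had 3.32, 7.66 and 4.19 and Th17 cells 21.0, 59.5 and 18.3, and Th1 cells exceeded their mean by 2.03, 1.66 and 2.85. *Gbp4* and *Gbp6* did not pass against naïve cells (0.25 and −0.38), though *Gbp6* was lower without naïve replicate 1 (−0.68, adjusted p = 0.00235). *Gbp2* and *Igtp*, an immunity-related GTPase, rose by 0.87 and 0.54 against naïve cells and stood 2.00 and 2.22 above the other effector cells. The rise against naïve cells was not called without Th1 replicate 2 for *Gbp2* (0.72, adjusted p = 0.0513), nor for *Igtp* without it (0.49, adjusted p = 0.102), Th1 replicate 1 (0.58, adjusted p = 0.0654) or naïve replicate 1 (0.29, adjusted p = 0.091). *Isg20*, an RNA exonuclease, rose by 1.37. *Ly6a*, the gene of Sca-1, rose most of the list, from 13.2 and 43.6 to 1317 and 1435 (5.77 ± 0.47), with means of 1107 in Th2 and 1392 in Th17 cells.

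Other members lay between these. *Irf1*, the early factor of the IFNγ response, fell from 208 and 233 to 75.9 and 88.8 and stood 1.83 ± 0.10 above Th2 (mean 25.3) and Th17 cells (mean 19.8). *Iigp1*, another immunity-related GTPase, stood at 28.7 and 59.8 in naïve and 17.3 and 21.2 in Th1 cells (−1.07 ± 0.31, adjusted p = 0.0177, and −0.94, adjusted p = 0.0924 without Th1 replicate 1), but at 0.178 in Th2 and 0.547 in Th17 cells. *Ifi203* stood at 95.1 and 85.3 against 45.6 and 41.5, with 0.741 in Th2 and 3.60 in Th17 cells, a difference of 3.98 ± 0.14 from these. For these genes the level in Th1 cells lay below naïve cells and above both Th2 and Th17 cells.

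The naïve libraries differed from each other in this list. Of the 43 genes, 41 were higher in naïve replicate 2 than in replicate 1, with a median difference of 0.57, against 5541 of 10861 genes and a median of 0.00 overall. Without naïve replicate 2, 9 rose and 26 fell, and without replicate 1, 8 rose and 30 fell. The part of this in the values above was otherwise not tested. *Tgtp1* and several other members have close copies, so their own levels are uncertain.

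**Figure D4:**
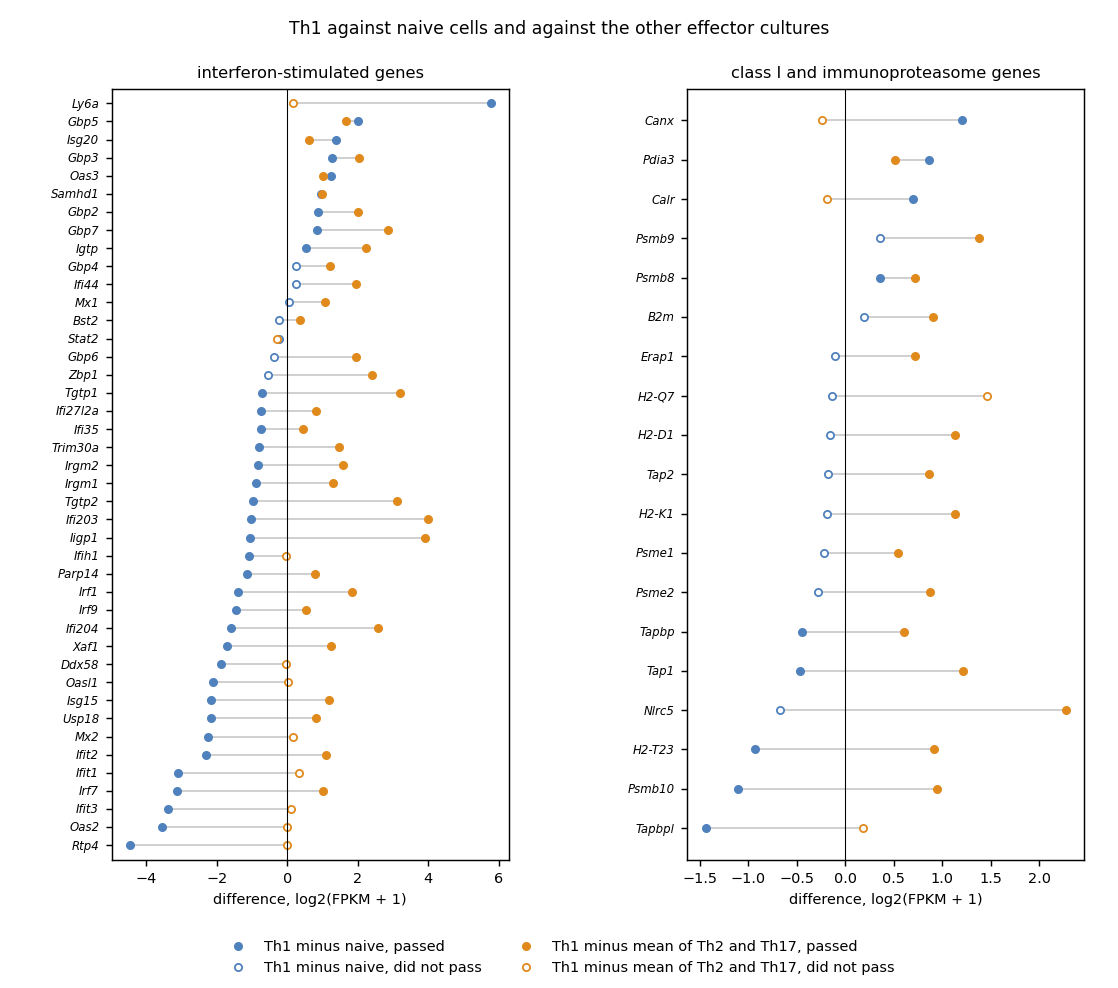
Difference of Th1 from naïve cells (blue) and from the mean of Th2 and Th17 cells (orange) on the log2(FPKM + 1) scale (horizontal axis) for the interferon-stimulated genes on the left, with 1 member not shown, and the class I genes on the right, filled where the test was passed. Most blue points lie left of 0 (median −0.90 and −0.18) and most orange points right of it (median 1.06 and 0.87).

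Class I antigen presentation showed little difference from naïve cells and a clear one from the other effector cells. Of 19 genes of the pathway and the immunoproteasome, 4 rose, 5 fell and 10 did not pass against naïve cells, with a median of −0.18. Against Th2 and Th17 cells 15 were higher and 0 lower, with a median of 0.87. *H2-K1*, a classical class I chain, stood at 812 and 1094 in naïve and 691 and 987 in Th1 cells, groups that overlap, and at means of 387 and 376 in Th2 and Th17 cells. *B2m*, its light chain, stood at 2305 and 2038 against 2507 and 2431, with 1450 and 1198 in the others. The differences of Th1 from Th2 and Th17 cells were 1.13 ± 0.23 and 0.91 ± 0.12, and those from naïve cells −0.19 (adjusted p = 0.542) and 0.19 (adjusted p = 0.273). Without Th1 replicate 2 the calls against Th2 and Th17 cells were lost for *H2-K1* (0.87), *Tapbp* (0.46), *Psme1* (0.44), *Psme2* (0.59) and *Pdia3* (0.42). *Psmb9*, an immunoproteasome subunit, stood 1.38 ± 0.13 above the other effector cells and *Nlrc5*, the transactivator of class I genes, 2.28 ± 0.24, while neither passed against naïve cells (adjusted p = 0.0682 and 0.0631). *Psmb8* rose by 0.36 against naïve cells (adjusted p = 0.0403), a call lost with any 1 of the 4 libraries left out (adjusted p = 0.0816 to 0.152) and under quantile normalization (0.04). The other members that rose, *Canx* (1.2), *Pdia3* (0.86) and *Calr* (0.70), are general folding factors of the endoplasmic reticulum. *Tapbpl* fell most, from 41.2 and 49.6 to 15.3 and 16.7, followed by *Psmb10* (−1.11), *H2-T23* (−0.93), *Tap1* (−0.47) and *Tapbp* (−0.45). The count of 5 that fell was 8 under quantile normalization and 3 without naïve replicate 2 or Th1 replicate 1, where *Tap1* (−0.29 and −0.34) and *Tapbp* (−0.30 and −0.30) did not pass. H2 genes vary between mouse strains and resemble each other, and how reads were assigned among them was not tested.

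Genes that set survival moved in both directions. Of 28 genes of apoptosis and survival 13 rose, 5 fell and 10 did not pass, with a median of 0.24. *Bcl2* and *Bcl2l1*, inhibitors of apoptosis, rose from 22.1 and 20.8 to 88.2 and 77.7 and from 7.61 and 7.03 to 49.1 and 50.1. *Mcl1*, of the same function, fell most, from 213 and 182 to 105 and 89.3. The promoters of apoptosis *Pmaip1*, the gene of NOXA (0.534 and 0.376 against 41.2 and 37.3), and *Bcl2l11*, that of BIM (16.8 and 15.7 against 42.1 and 44.6), rose. *Pmaip1* and *Bcl2l11* also stood 2.01 ± 0.10 and 2.38 ± 0.11 above Th2 and Th17 cells. Of 15 GIMAP and Schlafen genes, GTPases and growth regulators of resting lymphocytes, 10 fell, 3 rose and 2 did not pass, with a median of −0.78. *Slfn5* fell from 29.8 and 43.3 to 0.906 and 0.911 and *Gimap6* from 535 and 489 to 150 and 153, whereas *Slfn9* rose by 1.11. The list of S100, annexin and galectin genes names calcium-binding and sugar-binding proteins of activated cells. It also held *Vim*, *Tmsb10*, *Tmsb4x*, *Capg*, *Crip1*, *Ahnak* and *Emp3*, which belong to none of these families. Of its 22 genes 17 rose, 3 fell and 2 did not pass, with a median of 2.43. *Lgals3*, the gene of galectin-3, rose from 1.34 and 1.23 to 309 and 360 (7.19 ± 0.11), and *Anxa2* from 5.60 and 5.89 to 723 and 811. *Vim*, a filament protein counted with them, reached 2894 and 2945. *Anxa1* and *S100a4* stood 4.24 and 3.19 above the other effector cells, and *Lgals9* fell most (−1.63).

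Nearly all genes of cell division rose. Of 52 tested genes of DNA replication and S phase 50 rose, 0 fell and 2 did not pass, with a median of 2.16. Of 58 mitosis genes 57 rose and 1 fell, with a median of 3.87. These medians stand against −0.05 over all genes.

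Promoter windows in RefSeq were found for 43 of the replication genes (52 windows) and 49 of the mitosis genes (54 windows). The E2F element, searched on both strands as TTTCCCGC or TTTGGCGC, was in 14 replication windows (26.9%), in 1.6% of all windows and in 3.2% of those of the genes tested. The CHR element, bound by complexes that time mitotic genes and searched as TTTGAA, was in 38 mitosis windows (70.4%), in 17.9% of all windows and in 11.9% of those of the genes tested. The 120 bases before the start are shown as above for 3 genes of each list that hold the element. Capitals mark E2F in *Dtl* (chr1:191575545-191575664, minus strand), *Mcm6* (chr1:128359706-128359825, minus strand) and *Gins3* (chr8:95633439-95633558, plus strand).
Dtl: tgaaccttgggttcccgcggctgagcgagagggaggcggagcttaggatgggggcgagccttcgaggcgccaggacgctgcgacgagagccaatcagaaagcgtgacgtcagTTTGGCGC
Mcm6: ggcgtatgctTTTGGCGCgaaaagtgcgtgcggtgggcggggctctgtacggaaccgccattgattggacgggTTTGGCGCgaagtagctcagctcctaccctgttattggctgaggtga
Gins3: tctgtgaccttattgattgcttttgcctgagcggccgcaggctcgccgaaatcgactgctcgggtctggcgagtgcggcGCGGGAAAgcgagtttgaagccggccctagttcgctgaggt
Capitals mark CHR in *Ube2c* (chr2:164769809-164769928, plus strand), *Mki67* (chr7:135716380-135716499, minus strand) and *Cdk1* (chr10:69352913-69353032, minus strand).
Ube2c: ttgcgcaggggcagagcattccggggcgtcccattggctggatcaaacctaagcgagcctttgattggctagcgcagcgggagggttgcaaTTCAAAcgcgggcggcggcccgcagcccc
Mki67: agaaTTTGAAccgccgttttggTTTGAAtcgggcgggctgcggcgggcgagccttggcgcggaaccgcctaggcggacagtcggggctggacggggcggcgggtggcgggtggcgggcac
Cdk1: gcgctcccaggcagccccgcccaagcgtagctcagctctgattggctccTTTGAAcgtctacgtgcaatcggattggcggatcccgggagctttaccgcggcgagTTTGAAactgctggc

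Among the replication genes, *Rrm2*, the regulated subunit of ribonucleotide reductase, rose most, from 1.37 and 1.42 to 140 and 132 (5.83 ± 0.16). *Top2a*, which untangles DNA, rose from 1.18 and 1.93 to 135 and 149, and *Dtl*, of a ubiquitin ligase that guards replication, from 0.0982 and 0.176 to 13.5 and 12.4. *Mcm6*, of the helicase, stood at 9.89 and 9.68 against 86.3 and 92.6, and *Gins3*, its partner, at 3.04 and 3.52 against 7.51 and 6.80. None of these overlapped, though the size ran from 5.83 for *Rrm2* to 0.93 ± 0.13 for *Gins3*. *Gins4* had the smallest called rise (0.50), and *Pold2* (0.21) and *Rpa1* (0.12) did not pass. Of the mitosis genes *Ube2c*, the ubiquitin carrier of the anaphase-promoting complex, rose most, from 0.601 and 0.784 to 169 and 173 (6.67 ± 0.10). *Mki67*, the gene of Ki-67, stood at 0.577 and 1.06 against 61.5 and 80.5, *Cdk1*, the mitotic kinase, at 0.246 and 0.297 against 45 and 46.7, and *Aurkb* at 0.274 and 0.250 against 63.6 and 67.8. *Smc4*, a condensin subunit, was the 1 that fell, from 82.3 and 77.0 to 60.5 and 49.3, a call lost without naïve replicate 1 (−0.49, adjusted p = 0.0715) or Th1 replicate 2 (−0.39, adjusted p = 0.0994). The same lists differed little in size from Th2 and Th17 cells: 22 replication genes were higher and 1 lower, with a median of 0.33, and 35 mitosis genes were higher and 0 lower, with a median of 0.37. These counts moved with single libraries: without Th1 replicate 1 they were 8 and 18, and without Th1 replicate 2 they were 6 and 9. The replication count was also 11 without Th2 replicate 2, and without Th17 replicate 1 the counts were 10 and 22. *Top2a* (adjusted p = 0.0844) and *Mki67* (adjusted p = 0.0697) did not pass that comparison.

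Genes of a mixed list of cell cycle regulators mostly rose. Besides inhibitors and D cyclins the list held other regulators, such as *Cdk4*, *Cdk6*, *E2f3* and *Myc*. Its counts are therefore not those of inhibitors and D cyclins alone. Of 26 tested 19 rose, 4 fell and 3 did not pass, with a median of 1.11. Among the D cyclins *Ccnd3* rose (1.95), *Ccnd2* did not pass (0.02) and *Ccnd1* was not tested for low values. *Cdkn1a*, the gene of p21, rose from 0.102 and 0.360 to 218 and 225 (7.51 ± 0.15) and *Cdkn2a*, the locus of p16 and p19, from 0 and 0.0679 to 28.5 and 25.3. *Cdkn1b*, the gene of p27 that holds resting T cells, fell most, from 76.6 and 65.8 to 22.3 and 19.3. Of 53 histone genes tested of 74, 39 rose, 6 fell and 8 did not pass, with a median of 0.96. *H1f0*, a linker histone, rose most (2.64) and *Hist3h2a* fell most (−1.88). Histone genes are near copies of each other and many were low, and at a mean FPKM of at least 5, where fewer were tested, 5 were called higher, and under quantile normalization 22. Of 21 DNA and histone methylation enzymes 8 rose, 9 fell and 4 did not pass, against 32.9% and 35.1% of all genes, with a median of 0.01. *Uhrf1*, which copies DNA methylation at replication, rose from 1.18 and 1.39 to 48.0 and 54.3, and *Ezh2*, the methylase of H3K27, by 1.97. *Kdm6b*, which removes that mark, and *Tet3* fell by 1.63 and 1.52.

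Genes of glycolysis mostly rose. Of 26 genes of glycolysis and the pentose phosphate pathway 23 rose, 2 fell and 1 did not pass, with a median of 2.05. *Slc16a3*, which exports lactate, stood at 0.380 and 0.422 in naïve and 100 and 131 in Th1 cells (6.36 ± 0.20), and *Hk2*, which traps glucose, at 0.148 and 0.0910 against 24.0 and 28.0. *Tpi1* rose from 12.5 and 12.8 to 636 and 700, *Pgk1* from 51.2 and 47.6 to 1299 and 1409, and *Ldha* from 249 and 221 to 1132 and 1185. *Ldhb*, the other chain of lactate dehydrogenase, fell most, from 23.4 and 21.5 to 5.33 and 4.85. Set against Th2 and Th17 cells, 1 of the 26 was higher and 4 lower, with a median of −0.13. *Slc2a3*, a glucose transporter, rose from 11.2 and 12.4 to 175 and 210 and was lower than in Th2 cells (mean 590). *Hif1a*, a regulator of glycolysis, rose by 4.02.

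Of 34 genes of cholesterol and fatty acid synthesis 30 rose, 1 fell and 3 did not pass, with a median of 1.54. *Fads2*, a desaturase, rose most, from 0.0335 and 0 to 36.9 and 45.9. *Scd2*, another desaturase, rose from 12.7 and 13.8 to 202 and 201. *Hmgcs1*, an early enzyme of cholesterol synthesis, rose by 2.85, and *Acss2* fell by 0.78. Of 26 nucleotide synthesis genes 14 rose, 4 fell and 8 did not pass (median 0.49), with *Rrm2* the largest rise and *Dhodh*, of pyrimidine synthesis, the largest fall (−1.13). Of 29 amino acid and one-carbon genes 20 rose, 2 fell and 7 did not pass (median 0.70). *Slc43a3*, a purine transporter kept on that list, rose most (4.30), *Odc1*, of polyamine synthesis, rose from 5.89 and 5.13 to 112 and 104, and *Mat2a* fell by 0.59 (adjusted p = 0.105 without naïve replicate 1 and 0.0997 without Th1 replicate 2).

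Mitochondrial genes had smaller medians. Of 72 oxidative phosphorylation genes 43 rose, 1 fell and 28 did not pass, with a median of 0.47 and *Cox5a*, of cytochrome oxidase, highest (65.4 and 63.6 against 241 and 252). *Ndufv1* was the 1 that fell (−0.36), which did not pass with any 1 of the 4 libraries left out (adjusted p = 0.0585 to 0.136), and the count of 43 was 28 under quantile normalization. Of 26 TCA cycle and mitochondrial enzymes 11 rose, 5 fell and 10 did not pass (median 0.13), with *Idh2* lowest (−1.07), and the 5 became 3 without either Th1 library and 9 under quantile normalization. Of 76 mitochondrial ribosomal proteins 29 rose, 9 fell and 38 did not pass (median 0.13), from *Mrpl45* (1.35) to *Mrpl38* (−1.31). In naïve replicate 2, only 7 of the 72 oxidative phosphorylation genes and 9 of the 76 mitochondrial ribosomal genes were higher than in naïve replicate 1, both with a median difference of −0.19, against 5541 of all 10861 genes tested with a median of 0.00, and the part of this in the counts was not tested beyond leaving out each library. The count of 29 was 18 without naïve replicate 2 and 17 without Th1 replicate 2, and the count of 9 was 4 without naïve replicate 1 and 5 without Th1 replicate 1. Of 31 autophagy and lysosome genes 11 rose, 8 fell and 12 did not pass (median 0.07), from *Gabarapl1* (3.91) to *Ctss* (−1.02). Among all genes tested 32.9% rose and 35.1% fell.

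Genes of protein folding were mostly higher. Of 33 genes of folding in the endoplasmic reticulum and its stress response 25 rose, 4 fell and 4 did not pass, with a median of 0.75. *Xbp1*, the factor that expands this organelle, rose from 26.9 and 24.9 to 527 and 514 (4.28 ± 0.12), *Sdf2l1* by 2.97 and *P4hb* by 2.28, and *Dnajc3* fell by 1.01. Of 35 translation initiation and elongation genes 19 rose, 4 fell and 12 did not pass (median 0.47). *Eif4ebp1*, a brake on initiation, rose most, from 6.13 and 5.96 to 79.4 and 77.7, and *Eif4a2* fell most (−0.87). Of 20 tRNA synthetase genes 14 rose, 0 fell and 6 did not pass (median 0.39), from *Nars* (0.29) to *Qars* (1.2), and the 14 became 6 without naïve replicate 1 and 5 without Th1 replicate 2, the call of *Nars* being lost in both cases (adjusted p = 0.0658 and 0.102). Of 25 cytosolic chaperones 16 rose, 2 fell and 7 did not pass (median 0.48), with *Hsp90aa1* highest (1.78) and *Dnaja1*, whose quantification failed in a Th1 library, lowest (−1.25). Of 34 proteasome genes 22 rose, 1 fell and 11 did not pass (median 0.44), from *Psmb2* (1.04) to *Psmd5* (−0.30), and the 22 became 13 without naïve replicate 2 and 13 without Th1 replicate 2. *Psmd5* was not called without naïve replicate 1 (adjusted p = 0.124), naïve replicate 2 (0.112) or Th1 replicate 2 (0.236).

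Ribosomal protein genes differed little. Of 77 tested, 21 rose, 3 fell and 53 did not pass, with a median of 0.16. *Rps27l*, a target of p53, rose most, from 51.3 and 40.4 to 227 and 200, and *Rps29* fell most, from 2412 and 2610 to 1089 and 1571. The 3 falls were *Rps29*, *Rps24* and *Rplp1*, and none passed without Th1 replicate 1 (adjusted p = 0.0697, 0.124 and 0.188), 1 without Th1 replicate 2 and 1 without naïve replicate 1. In this list 12 of 77 genes were higher in naïve replicate 2 than in replicate 1, with a median difference of −0.26. The count of 21 fell to 9 under quantile normalization and to 9 without naïve replicate 2 or without Th1 replicate 1 (10 without Th1 replicate 2), and the median went to −0.02 under quantile normalization, so no direction is given for this group. Of 40 ribosome biogenesis genes 8 rose, 16 fell and 16 did not pass, with a median of −0.07, from *Nhp2* (1.19) to *Nle1* (−1.31), and the 16 became 10 without naïve replicate 2 or without Th1 replicate 1, and the 8 became 4 without naïve replicate 1 and 5 without Th1 replicate 2.

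**Figure D5:**
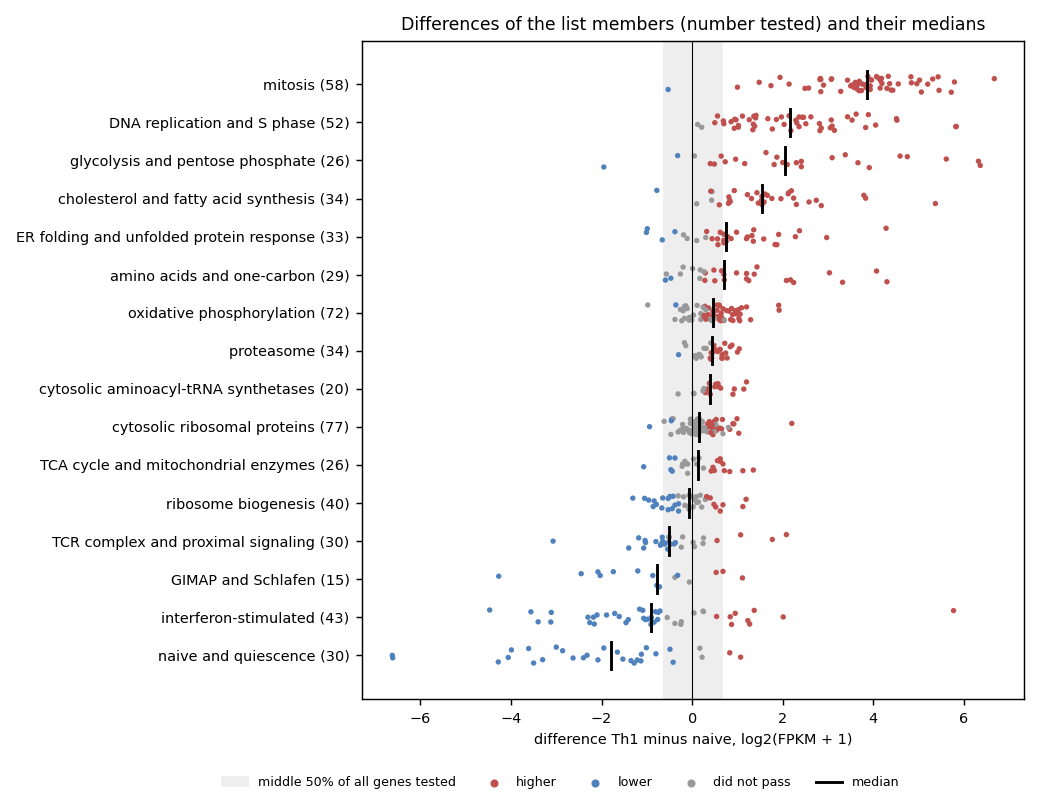
Difference of Th1 from naïve cells on the log2(FPKM + 1) scale (horizontal axis) for the tested members of 16 gene groups, each point a gene, with group medians as black lines and the middle 50% of all genes as a grey band. The mitosis genes center at 3.87 and the interferon-stimulated genes at −0.90, against −0.05 over all genes.

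Lists of markers of other cells were examined in the same way. Of 11 B cell markers 2 were tested and both fell, and the summed FPKM was 10.9 and 8.62 in naïve and 4.28 and 3.28 in Th1 cells. Of 10 dendritic cell markers 2 were tested and both rose, and the sum of 1.36 and 1.91 against 144 and 119 was nearly all *Batf3*, which T cells also express. *Ccl22* stood at 0 and 0.0273 against 4.23 and 3.94. The other listed dendritic cell markers were at or below 0.902 in all 4 libraries. Among them *Xcr1* (0.00205 and 0 against 0.844 and 0.902) and *Zbtb46* (0.0552 and 0.0370 against 0.165 and 0.126) were higher in Th1 cells, while *Clec9a*, *Siglech* and *Cd209a* were at 0 to 0.0125 there. Of 10 CD8 T and NK cell markers 3 were tested, 1 rose and 2 fell. *Cd8b1* went from 90.5 and 52.8 to 10.7 and 8.77, while *Cd8a* was at 2.94 and 1.77 in naïve cells, and *Ncr1*, the NK cell receptor NKp46, was listed at 0 in both Th1 libraries. Of 7 MHC class II genes 6 were tested, 2 rose, 3 fell and 1 did not pass. *Cd74*, the invariant chain, fell from 44.8 and 42.2 to 10.2 and 10.2 and *H2-Aa* from 19.6 and 17.3 to 3.05 and 4.03, whereas *H2-Ab1* rose from 11.5 and 11.2 to 45.1 and 49.8. The 2 erythroid markers tested fell, with a summed FPKM over the list of 7.64 and 9.46 in naïve and 1.28 and 1.54 in Th1 cells, and of the 2 stromal markers tested 1 fell and 1 did not pass, with sums of 59.7 and 69.0 against 22.8 and 31.9 that were mostly *Pecam1* (59.5 and 66.7 against 22 and 24), an adhesion molecule that T cells also carry. The part of such cells in the gene groups above was not tested.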

How the data were processed

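RNA was sequenced from naïve CD4 T cells and from Th1, Th2 and Th17 cells, with 2 libraries per group. Per the submitters' processing notes and the methods, the authors aligned reads to mm10 with TopHat 1.3.2 and Bowtie 0.12.8 and deposited FPKM per gene from Cufflinks 2.0.2. No scaling between libraries is stated, and the gene annotation is not given in the sources used here. The labels name a stranded kit and the methods a kit that does not keep strand, so overlapping genes on opposite strands may share reads. A read that aligns to several copies of a gene may be split or lost.

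Groups and replicate numbers were taken from the labels. Each file held 23746 rows, and rows of the same gene were summed to 23284 genes. No column of sample values was left unused (0 columns). No read counts were used, so depth was estimated from the width of the deposited confidence intervals, which covers counting error only. The 10861 genes whose FPKM averaged 1 or more over the 4 Th1 and naïve libraries were fitted on log2(FPKM + 1) with limma (version 3.58.1, R 4.3.3, with lmFit, and eBayes using the trend of variance with level) as 4 group means over all 8 libraries. All 8 libraries thus share one estimate of the spread. The contrasts were Th1 minus naïve and Th1 minus the mean of Th2 and Th17, two-sided, with Benjamini-Hochberg adjustment over all 10861 genes and a threshold of 0.05. In simulated data of 10861 genes with 200 changed between Th1 and naïve cells, 72.5% were recovered at a log2 change of 1 and 96.5% at 2, and 2.685% and 4.926% of calls were false. Far fewer genes were changed there than were called in the real comparison, so these rates need not hold for it. Tables and figures were made with Python 3.11.15, pandas 2.3.3, numpy 2.4.6 and matplotlib 3.10.9.

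The 48 gene lists held 1330 genes, of which 1212 were tested. The members and lists were chosen with earlier results of these data known, so they are not independent support. Named genes were *Tbx21*, *Ifng* and *Il12rb2*, the 15 called genes with the largest and the 15 with the smallest difference among those whose libraries did not overlap (without receptor segments, numbered gene models and small RNAs), and members of the lists, always with the called member of largest and of smallest difference, except that some are not reported here. Promoter sequences came from RefSeq (GRCm38.p6), whose build is that of the files.

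The replicate numbers of the labels are shared by all groups. The differences between replicates correlated across genes with r = 0.152 (naïve and Th2) to 0.379 (Th2 and Th17) in all pairs of groups. For naïve and Th1 cells r was 0.287. The numbers may therefore pair the libraries, but the labels do not say so. The reported fit used no such pairing, and a fit with this block was an alternative. The other alternatives were a pseudocount of 0.1, no filter, a mean FPKM of at least 5, median scaling, quantile normalization, a fit of the compared groups only, no trend, the highest row of a repeated gene, a log2 difference of at least 1 and each library left out. A limit to genes whose quantification did not fail in the 4 libraries was chosen after seeing the data.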

Additional observations from a re-analysis of the deposited data

Results flagged for a closer look

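Among the 1212 genes of the lists, 4 moved in opposite directions in Th1 cells and in the mean of Th2 and Th17 cells. Both changes were at least 1 on the log2(FPKM + 1) scale against the same naïve libraries. The difference between Th1 cells and that mean passed the limma test. For *Il18r1*, the IL-18 receptor chain, the change from naïve cells was 2.41 in Th1 and −2.13 in the mean of Th2 and Th17 cells, and the difference between them was 4.54. That fall lay mainly in Th2 cells: the mean FPKM was 23.5 in naïve, 0.8 in Th2 and 16.5 in Th17 cells. *Fasl*, the ligand of FAS, changed by 1.42 and −1.35, a difference of 2.77. Its mean FPKM was 2.09 in naïve, 0.157 in Th2 and 0.27 in Th17 cells. *Klrd1*, the gene of CD94, changed by 1.57 and −1.66, a difference of 3.23, although its naïve libraries stood apart at an FPKM of 8.71 and 3.51. Its mean was 0.0749 in Th2 cells but 3.07 in Th17 cells, close to the lower naïve library. *Bcl2l11*, the gene of BIM, changed by 1.36 and −1.02, a difference of 2.38. Its mean FPKM was 16.3 in naïve, 8.65 in Th2 and 6.6 in Th17 cells. With no limit on size, 26 of the 1212 genes showed such opposite called changes, of which 18 rose and 8 fell from naïve to Th1 cells.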

How the results depend on the processing

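The counts against naïve cells kept within 1.5 times of those reported (3574 higher and 3813 lower) under every alternative but the limit to a log2 difference of at least 1, which left 1935 and 1385. With each library left out in turn they were 3102 to 3384 and 3173 to 3508. Against Th2 and Th17 cells, with 1799 higher and 1507 lower, that limit left 501 and 262. There the count of lower genes was 2668 with no filter on low values, which tests more genes, and 931 at a mean FPKM of at least 5, which tests fewer. With each library left out it was 923 to 1736 for higher and 792 to 1351 for lower genes, with 1158 and 792 without Th1 replicate 1 and 923 and 820 without Th1 replicate 2, so these counts rested on having both Th1 libraries.

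With the replicate block, 3892 genes were higher and 4248 lower than in naïve cells and 2327 higher and 1989 lower than in Th2 and Th17 cells, and of the 1212 genes of the lists none lost its call in either contrast. Under quantile normalization, which moved the median of all genes from −0.055 to −0.148, *Tnfsf14* (−0.36 against 0.25), *Csf2ra* (−0.44 against 0.07) and *Itgam* (−0.56 against 0.04, quantification failed in a naïve library) changed sign and passed the test. *Cbl* was at −0.54 without naïve replicate 1 and at 0.59 without replicate 2, against 0.02. The cause was not tested. Of 16830 values of the list genes against naïve cells, 16025 kept their direction and side of the threshold, 617 no longer passed, 184 newly passed and 4 changed sign. Of 19254 against Th2 and Th17 cells, 18129 kept them, 834 no longer passed and 291 newly passed. Among list counts of at least 5, 13 of 52 against naïve cells and 21 of 32 against the other effector cells moved by over 1.5 times under some alternative. In the latter, TCR genes went from 18 to 8 without Th1 replicate 2. The median of Treg and Tfh markers (0.01 to −0.29), autophagy and lysosome genes (0.07 to −0.05), ribosomal proteins (0.16 to −0.02) and myeloid markers (0.34 to −0.14) changed sign under quantile normalization. The 2 libraries per group and no read counts limit what small differences can show.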

Other observations

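The genes higher in Th1 cells than in both naïve cells and the other effector cells with no limit on size included *Amica1*, an adhesion molecule that stood at an FPKM of 2.25 and 3.21 in naïve and 14.3 and 15.6 in Th1 cells (2.11 ± 0.16). *Itgb2*, the common β2 integrin chain, stood at 137 and 160 against 193 and 242, although its call against naïve cells was lost under quantile normalization (0.18, adjusted p = 0.365), without naïve replicate 1 (0.43, adjusted p = 0.109) and without Th1 replicate 2 (0.38, adjusted p = 0.131). *Ctsd*, a lysosomal protease, stood at 166 and 172 against 258 and 311. *Tnfsf8*, which encodes the ligand of CD30, fell from 20.6 and 26.1 to 11.7 and 10.9. *Socs3*, the feedback inhibitor of STAT3, fell from 78.2 and 75.2 to 54.2 and 57.9, a call lost without Th1 replicate 1 (−0.40, adjusted p = 0.0523). *H2-Ab1* rose by 1.97 while *H2-Aa*, whose product is its partner in the same heterodimer, fell by 2.11.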
